A study of Mus musculus with 3 samples.

Results

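Mouse fibroblasts were compared with the cells named DiBA, 1 array each, over every gene that the 2 arrays measured. The comparison used 2 of the 3 samples of the series. Of 19938 genes with a probe set naming that gene alone, 11621 entered the comparison, because the brighter of the 2 arrays reached an intensity of at least 69.2, which is the median across the 3 arrays of the 28943 probe sets. Taken each on its own, 12894 probe sets with a single gene symbol met the same rule. The question was how DiBA differed from fibroblasts in functions other than the adipocyte, matrix and cell division genes.

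The fibroblast array came from cells labelled mouse fibroblasts, and the second array from cells labelled DiBA, both described as cultivated cells with no treatment. The title of the series refers to brown adipocytes obtained by direct conversion, and the labels give no agent or factor used for the conversion and no strain, sex, age or passage for either sample. A further array, BA, is given beside some values. Its source is labelled brown adipose tissue, although its description is the same as that of the cultivated cells. With 1 array per group there was no replicate check, no error could be estimated, and every difference describes these arrays only.

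Brown adipocytes are fat cells that burn fuel for heat in mitochondria through the uncoupling protein UCP1. Fibroblasts are connective tissue cells that divide in culture, spread under tension on plastic and secrete matrix. Direct conversion turns a fibroblast into another cell type without passing through a stem cell.

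Intensities are the authors' deposited values on a linear scale. A difference is log2(intensity + 1) in DiBA minus that in fibroblasts, and a fold is read from the same scale. A gene was called higher or lower when the fold reached 2. A gene's values are written as fibroblasts against DiBA, and a value in BA follows where it is given. Genes that define the labels were read first. Ucp1 read 23.5 against 4598 with 4995 in BA, Adipoq, the adiponectin gene, read 14.9 against 5849, and Col1a1, a chain of collagen I, read 4780.4 against 854. Mki67, a gene of dividing cells, read 963 against 281 with 34 in BA, so DiBA lay between the other arrays.

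The DiBA array also carried genes of cell types that neither label names. Of 20 skeletal muscle markers, 19 were higher in DiBA, and their summed intensity was 4189.9 in fibroblasts, 24414 in DiBA and 27808 in BA. Ckm, the muscle creatine kinase, read 94.7 against 2489, and Myh4, a fast myosin heavy chain, read 41.2 against 1142. Of 8 genes of muscle determination and early muscle, 1 was higher and 3 were lower, or 0 and 1 with low intensities raised to the median. Myod1 and Myog, determination factors, read 128 against 60.4 and 82.3 against 39.7, and Myf6, another of them, was the higher one at 27 against 72.2. Myh3, the embryonic myosin heavy chain, read 146 against 31.3 and stayed lower with low intensities raised. Of 19 endothelial markers 13 were higher and 0 lower, with sums of 2323 in fibroblasts, 5658 in DiBA and 6769 in BA, and Cdh5, the endothelial cadherin, read 32.6 against 1027. Of 23 macrophage markers 19 were higher and 0 lower, with sums of 2446 in fibroblasts, 8824 in DiBA and 9139.7 in BA, led by the class II gene H2-Aa at 29 against 778. No marker was called among 16 genes of T, B and NK lymphocytes or 9 of hepatocytes, and every member of both lists lay under the median intensity on both arrays. Of 14 neutrophil and mast cell markers 2 were higher and 0 lower, the mast cell genes Cpa3 at 11.7 against 243 and Mcpt4 at 28.5 against 132, and Mcpt4 was not called with low intensities raised. Of 3 erythrocyte markers 1 was higher, Alas2, which makes haem in red blood cells, at 25.9 against 260. Of 13 epithelial and mesothelial markers 0 were higher and 5 lower, or 2 lower with low intensities raised. The summed skeletal muscle, endothelial and macrophage intensities of DiBA lay closer to those of BA, the array labelled as tissue, than to those of the fibroblasts. These marker values go against a label of cultivated cells of 1 type, so the array is called DiBA by its label only. The part of these markers in the results that follow was not tested. In such bulk RNA, fewer cells of a type and less RNA per cell cannot be told apart.

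**Figure D1:**
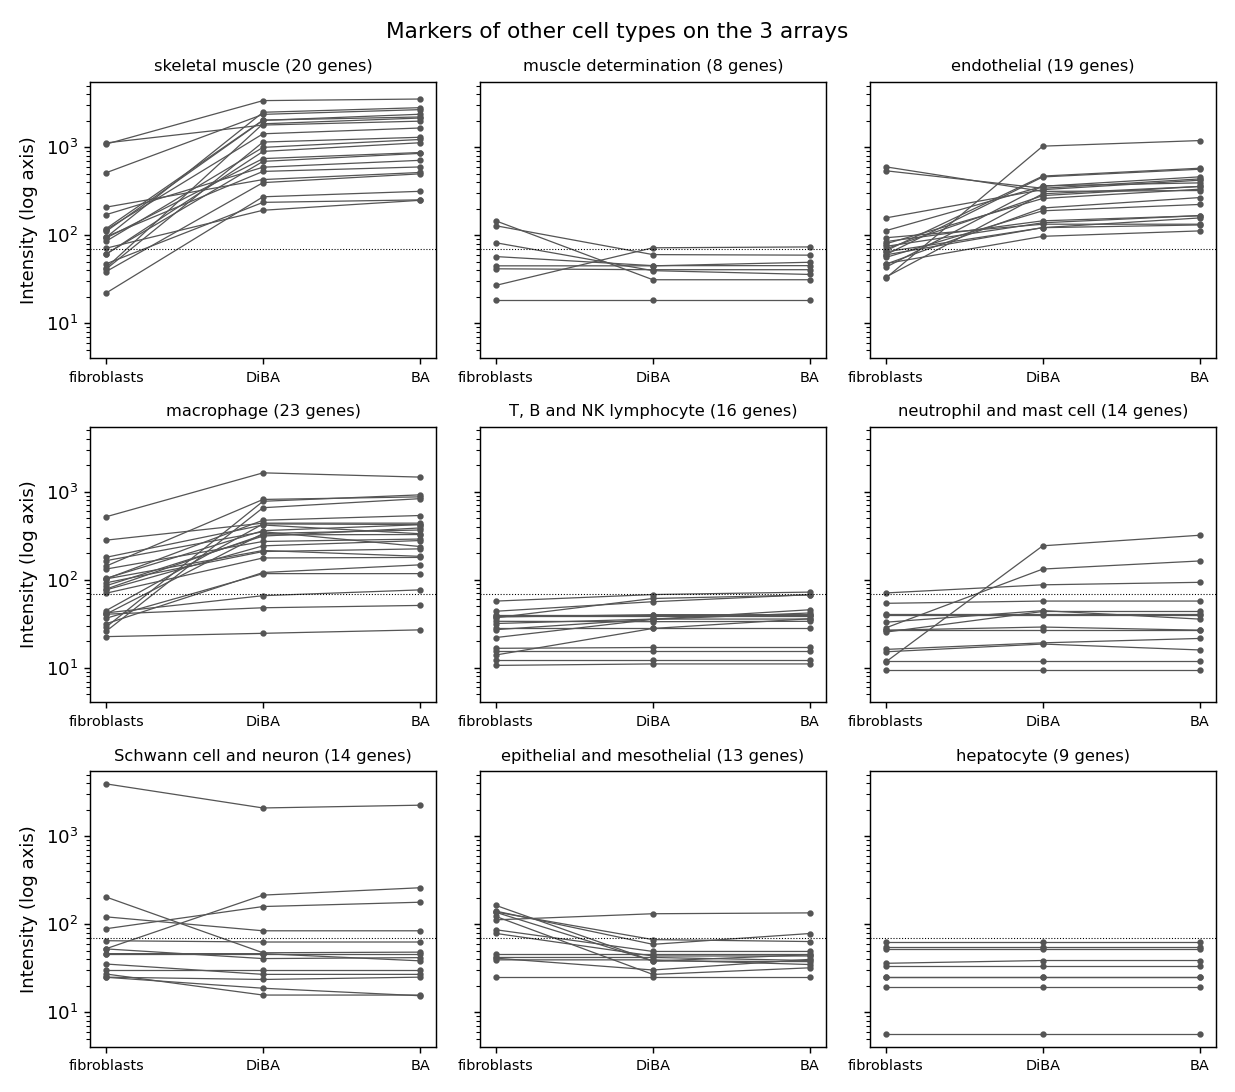
Intensity (log axis) of each marker gene of 9 other cell types on the fibroblast, DiBA and BA arrays, 1 line per gene, with a dotted line at the median intensity of 69.2. Most skeletal muscle, endothelial and macrophage markers lie higher on the DiBA and BA arrays than on the fibroblast array. Lymphocyte and hepatocyte markers stay under the dotted line.

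Across all genes the arrays differed in both directions. DiBA was higher for 1703 genes, 14.7% of those entering the comparison and 8.54% of all genes measured, and lower for 1530, which is 13.2% and 7.67%. The higher side reached further. At least 8-fold higher were 307 genes (2.64% of those entering) and at least 8-fold lower 82 (0.706%). The median difference was 0, with 5th and 95th percentiles of -1.70 and 2.25. Of the genes called higher, 593 (34.8%) lay under the median intensity in fibroblasts, and of those called lower 357 (23.3%) lay under it in DiBA, so their folds rest on dim values. With every intensity first raised to that median, 1532 genes (7.68% of all measured) were higher and 1382 (6.93%) lower. Beside a list, the share of its measured members is read against 8.54% and 7.67%, and its median against 0. In 51 of 53 lists a larger share of members was bright enough to enter than the 58.3% of all genes, so their shares called can exceed those over all genes for that reason as well.

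**Figure D2:**
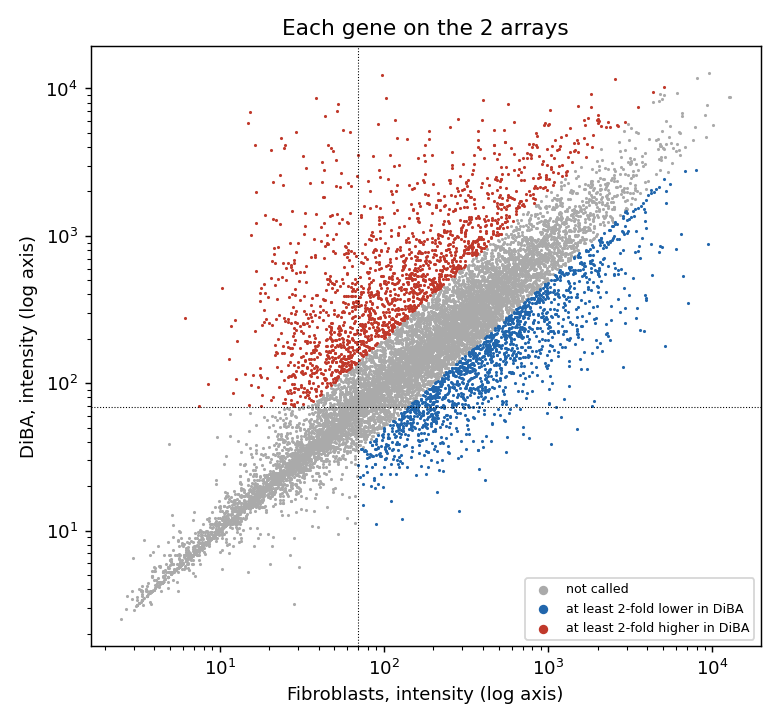
Intensity of each gene in fibroblasts (x) and DiBA (y), both on log axes, with dotted lines at the median intensity of 69.2. Red marks the 1703 genes at least 2-fold higher in DiBA, blue the 1530 at least 2-fold lower and grey the rest, and the red cloud reaches further from the diagonal than the blue one.

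Exact ties were common. Of the 11621 genes, 1630 (14%) carried the same intensity on both arrays to every deposited digit, and so did 7381 (37%) of all genes. Such ties come with the deposited values and give no measure of how alike the arrays are. As a description of the dim end, chosen after the values were seen, 1194 olfactory and vomeronasal receptor genes had a median intensity of 12.2 on both arrays, 69.6% were tied, and their differences had an SD of 0.15 over genes. Only 3 of them passed 2-fold at any level and 0 of the 8 that entered were called. At the edge of the filter, Nppb was just inside at 69.2 against 56 and Poc1a just outside at 69.2 against 55.5. At the edge of the call, Mypn (37.3 and 75.6) was just past 2-fold and Themis2 (51.8 and 104.6) just short of it. Of 148 called genes with several probe sets, 142 had all of them on the same side of 0 and 109 had all of them past 2-fold.

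**Figure D3:**
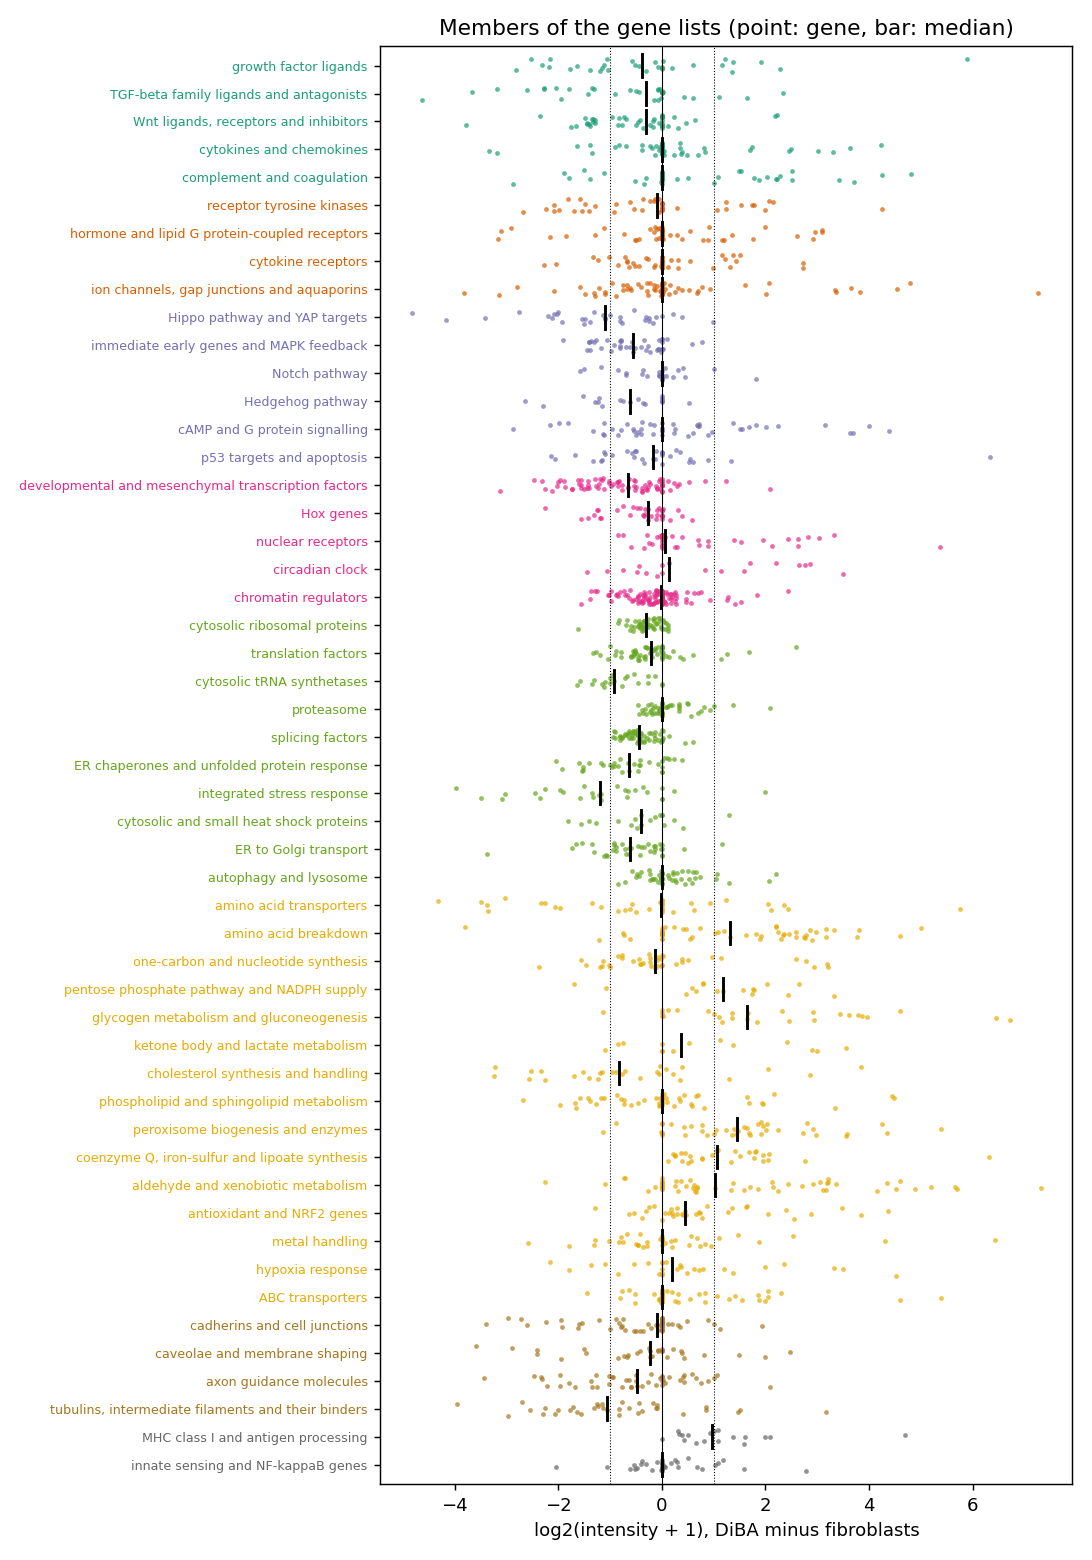
Difference in log2(intensity + 1), DiBA minus fibroblasts, of every measured member of 51 gene lists, with a bar at each list's median and dotted lines at 2-fold, labels coloured by role. The glycogen, peroxisome and amino acid breakdown lists lie to the right, with medians of 1.65, 1.45 and 1.31, while the Hippo, integrated stress response and tubulin lists lie to the left of -1.

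Growth factor genes were lower in DiBA more often than higher. Among 32 growth factor ligands 7 were higher and 13 lower (median -0.38). Nrg4, a factor that brown fat releases and that signals through ERBB receptors, read 21.1 against 1309 with 1569 in BA, 59.2-fold higher. Angpt1, a ligand of the TIE2 receptor of blood vessels, read 81.6 against 399, and Btc, the EGF family member betacellulin, read 50.9 against 195. Vegfa and Vegfb, which act on vessel growth and on endothelial cells, read 634 against 1417 and 579 against 1351. Lower were Hbegf, an EGF receptor ligand, at 703 against 98.2, Mdk, the heparin-binding factor midkine, at 549 against 94.7, and its relative Ptn, pleiotrophin, at 764 against 154 with 38.2 in BA.

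Of 32 TGF-beta family ligands and antagonists, 12 were lower and 3 higher (median -0.30). Inhba, which encodes the subunit of activin A, read 1909 against 76, 24.8-fold lower. Tgfb3, a TGF-beta isoform, read 2116 against 165, and Bmp4, a bone morphogenetic protein, read 2926 against 323 with 161 in BA. Lower antagonists include Grem1 at 580.4 against 119 and Fst, the activin trap follistatin, at 1016 against 261. Higher were Gdf5, a growth and differentiation factor of joints, at 55 against 281, Chrdl1, a BMP antagonist, at 44 against 139, and Bmp6 at 121 against 262.

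Of 48 Wnt ligands, receptors and inhibitors, 14 were lower and 2 higher (median -0.30). Ccn4, a matricellular Wnt target, read 1009 against 72.8, the frizzled receptor Fzd2 read 915 against 179, and Dkk3, a Dickkopf family member, read 207 against 60.6. The 2 exceptions were Lgr6, an R-spondin receptor at 67 against 318, and Fzd4, another frizzled at 233 against 1066.

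Chemokine genes lay on both sides. Of 52 cytokines and chemokines 8 were higher and 4 lower (15.4% and 7.69%, median 0), and 25 were bright enough to enter. The share lower is near the 7.67% of all genes, and the share higher stands beside 8.54%. Cxcl13, which attracts B cells, read 19.6 against 387, Ccl11, the eosinophil attractant eotaxin, 60.7 against 768, and Cxcl9, an interferon-induced chemokine, 39.3 against 395. Ccl7 and Ccl2, which attract monocytes, lay on the other side at 1332 against 131 and 1028 against 112. Tslp, a cytokine of barrier tissues, read 140.4 against 44.2. Complement and coagulation genes were higher in 16 of 41 cases and lower in 6 (39.0% and 14.6%). C4b, a complement component of the classical pathway, read 47.1 against 1354, C7, part of the membrane attack complex, 25.4 against 502, and C1s1, a serine protease of the first component, 18.1 against 249.7. Masp1, a protease of the lectin pathway, read 557 against 75.3, and Plaur, the urokinase receptor, 301 against 80.7. C1qb and C1qc are in this list and also macrophage markers, whose sum was 2446 and 8824 on the 2 arrays.

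Receptor tyrosine kinases lay on both sides. Among 42 receptor tyrosine kinases 10 were higher and 12 lower (median -0.09). Ntrk3, a neurotrophin receptor, read 43.8 against 854, 19.1-fold higher, its relative Ntrk2 52.7 against 236, and Erbb4, a receptor for neuregulins, 53 against 226. Insr, the insulin receptor, read 263 against 621, and Igf1r, the receptor for insulin-like growth factors, read 1081 against 372, so these related receptors lay on opposite sides. Lower were the ephrin receptors Epha3 at 246 against 37.7 and Ephb3 at 491 against 103, and Axl, a receptor for GAS6, at 1814 against 426. Tek and Tie1, higher at 70.2 against 282 and 56 against 189.6, are also on the endothelial list, whose sum was 2323 and 5658.

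Of 52 hormone and lipid receptors coupled to G proteins, 9 were higher and 7 lower. The higher ones include receptors known from fat cells. Hcar1, the lactate receptor that restrains lipolysis, read 42.5 against 370, Ptger3, a prostaglandin E receptor, 29.5 against 258, Mc5r, a melanocortin receptor, 32.1 against 257, and Tshr, the thyrotropin receptor, 28.4 against 221. The lower ones include F2r, the thrombin receptor, at 2261 against 253, and Lpar4, a lysophosphatidic acid receptor, at 669.8 against 148. Also lower were Htr2a and Htr1b, serotonin receptors, at 589 against 67.1 and 468 against 61.4.

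Among 43 cytokine receptors 8 were higher and 5 lower. Il15ra, a chain of an interleukin receptor, read 64.8 against 435, Cntfr, the receptor chain for ciliary neurotrophic factor, 151 against 1002, and Ghr, the growth hormone receptor, 1033 against 2923. Il15, the gene of the ligand of the first, was also higher, at 27 against 156. Tnfrsf11b, the decoy receptor osteoprotegerin, read 196 against 39.5, Tnfrsf12a, the TWEAK receptor, 993 against 238, and Tnfrsf23, a TNF receptor family decoy, 182 against 71.8. The 5 lower members all belong to the TNF receptor family.

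Of 73 ion channels, gap junction genes and aquaporins, 10 were higher and 11 lower. The water and glycerol channel Aqp7 read 24.7 against 3952, 154-fold higher, its relative Aqp11 17.9 against 441, and Clic5, a chloride intracellular channel protein, 43.3 against 1221. Ano1, a calcium-activated chloride channel, read 33.4 against 484. Lower were Kcnab1, a potassium channel subunit, at 379 against 26, the mechanically gated channels Piezo2 at 294 against 32.2 and Piezo1 at 1616 against 648, and Clcn5, a chloride transporter of endosomes, at 953 against 137.

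Inside the cell, Hippo pathway genes were lower in most cases. The pathway restrains the co-activators YAP and TAZ, which bind TEAD factors on DNA and respond to cell shape and density. Of 33 members, all bright enough to enter, 19 were lower and 0 higher (57.6%, median -1.11). The 3 lowest are classical YAP targets. Ccn2, connective tissue growth factor, read 5128 against 179 with 126 in BA, 28.4-fold lower, Ankrd1, an ankyrin repeat protein of heart and muscle, 411 against 21.9, and Ccn1, a matricellular protein, 3926 against 367. All 4 TEAD genes were lower, with Tead1 at 2095 against 496, Tead2 at 514 against 127, Tead3 at 391 against 138 and Tead4 at 148 against 66.4. The co-activators themselves were not called, at 737 against 422 for Yap1 and 599 against 413 for Wwtr1, which encodes TAZ. Lats2, a kinase that inhibits them, read 868 against 295, so members of the inhibitory and of the activating side were lower alike.

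The promoters of Ankrd1 and Ccn1 are shown because both are among the 3 lowest of the list and hold the letters GGAATG, a TEAD motif, before the start. Both come from RefSeq, build GRCm38.p6, and run over the 250 bases before the annotated start, 5′ to 3′ on the gene's strand, with the motif on either strand in capitals (CATTCC is its reverse complement). Ankrd1 lies on the minus strand at chr19:36119845-36120094 with matches at -210 and -123, and Ccn1 on the minus strand at chr3:145649986-145650235 with a match at -103.
Ankrd1: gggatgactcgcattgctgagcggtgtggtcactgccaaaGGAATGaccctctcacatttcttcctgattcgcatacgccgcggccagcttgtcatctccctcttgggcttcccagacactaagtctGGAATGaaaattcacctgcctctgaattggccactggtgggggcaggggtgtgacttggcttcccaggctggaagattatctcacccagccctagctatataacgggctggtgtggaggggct
Ccn1: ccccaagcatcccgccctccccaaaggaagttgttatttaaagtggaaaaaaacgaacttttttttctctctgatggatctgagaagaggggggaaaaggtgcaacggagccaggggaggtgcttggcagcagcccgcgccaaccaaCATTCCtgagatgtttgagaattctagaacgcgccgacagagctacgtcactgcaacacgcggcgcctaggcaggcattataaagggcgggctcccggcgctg
Over windows from 250 bases before to 50 after the start, 17 of 30 promoters of the Hippo list (56.7%, from 25 genes) held the motif on either strand. The share was 14.7% of all 32851 promoters, 13.9% of promoters of genes lower in DiBA and 13.4% of those of genes higher. Known YAP and TEAD targets were put on the Hippo list by design, so its share is no independent measure, and a match is a string of letters and not a measured site.

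Further signalling lists had members lower in DiBA. Immediate early and MAPK feedback genes were lower in 10 of 40 cases and higher in 0 (median -0.56), with Spry1, a feedback inhibitor of growth factor signalling, at 607 against 159.7, Fosl1, an AP-1 subunit, at 445 against 164, and Dusp5, a phosphatase of ERK, at 307 against 115. Jun read 688 against 647 and was not called. Hedgehog genes were lower in 7 of 19 cases and higher in 0, with Hhip, which traps the ligand, at 194 against 29.9, the transcription factors Gli3 at 542 against 109.7 and Gli2 at 182 against 62.7, and the signal transducer Smo at 1326 against 559.9. Notch genes gave 2 higher and 3 lower of 27 (7.41% and 11.1%, median 0), near the 8.54% and 7.67% of all genes. With low intensities raised to the median 1 Notch gene was higher. Mfng, which adds sugar to Notch, read 56 against 200 and Hes1, a Notch target, 414 against 146. p53 target and apoptosis genes gave 1 higher and 8 lower of 33, with Gadd45g at 517 against 117, Zmat3 at 617 against 147 and Mdm2, the p53 ubiquitin ligase, at 1026 against 318. The higher one, Cidec, is a lipid droplet protein of fat cells despite its place in a cell death family, and read 47.7 against 3920.4.

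The cAMP list gave 12 higher and 8 lower of 50. This second messenger carries the noradrenaline signal in brown fat. Rgs2 and Rgs7, which speed the shut-off of G proteins, read 75.5 against 1589.9 and 18.6 against 312. Pde3b, the phosphodiesterase by which insulin lowers cAMP in fat cells, read 119.9 against 1498, and Prkar2b, the regulatory subunit of protein kinase A common in fat, 466 against 4145. Its relative Prkar2a lay on the other side, at 580 against 266. Lower were Akap12, a scaffold of the kinase, at 972 against 131, and Rgs16 and Rgs4 at 388 against 86 and 242 against 60.4. Rgs5, higher at 57.3 against 749.9, is also on the smooth muscle and pericyte marker list. Of the 12 markers on that list 3 were higher and 4 lower (median -0.22).

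Many transcription factors of development were lower. Among 81 developmental and mesenchymal factors 32 were lower and 2 higher (39.5% and 2.47%, median -0.65). With low intensities raised to the median, 24 were lower and 1 higher, and Sox11 and Sox17 were no longer called. Twist2, a basic helix-loop-helix factor of mesenchyme, read 914 against 104, Foxd1, a forkhead factor, 201 against 35.7, and Sox11, an HMG box factor, 138 against 26.9. Prrx1 and Snai2, both known from mesenchymal cells, read 2663 against 554 and 985 against 252. The higher ones, Sox18 at 47 against 204 and Sox17 at 37.9 against 90.7, are known from blood vessels, and Sox18 is on the endothelial list. Of the 37 Hox genes, which record position along the body axis, 8 were lower and 0 higher. The called ones were dim, with Hoxc12 at 163 against 33.4, Hoxc10 at 104 against 34.4 and Hoxb9 at 171 against 62.8, and the count was 0 when only genes past the 75th percentile of all probe sets entered.

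Nuclear receptors, the hormone and lipid sensing factors, were higher in 11 of 39 cases and lower in 0 (28.2%), although the list's median was only 0.07 and became -0.01 with arrays centred on their medians. Ppara, which drives genes of fatty acid use, read 43.2 against 1827, 41.3-fold higher, Thrb, a thyroid hormone receptor, 36.6 against 377, and Nr1d1, the clock repressor REV-ERB alpha, 214 against 1759. Nr3c2, the mineralocorticoid receptor, read 22.1 against 163, and Esr1, an oestrogen receptor, 62.7 against 391.

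Of 19 circadian clock genes 8 were higher and 2 lower (42.1% and 10.5%). Dbp, an output factor of the clock, read 77.1 against 878, Per3, a repressor arm gene, 47.7 against 354, and Usp2, a rhythmic deubiquitinase, 80.5 against 556. The related output factors Hlf and Tef read 68.3 against 435 and 121 against 399. Lower were Arntl, which encodes the activator BMAL1, at 191 against 69.9, and Nfil3, which opposes DBP, at 337 against 161. The activator partner Clock read 601 against 562 and was not called. Each array is a single time point, and the labels give no hour of collection.

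Large families of regulators had few called members. Of 341 numbered Zfp genes 3 were higher and 14 lower (0.880% and 4.11%, median 0), which is under the 8.54% and 7.67% of all genes. The lowest of them was Zfp57, which maintains imprints, at 1013 against 91. Of 116 chromatin regulators 6 were higher and 7 lower. Sirt3, a mitochondrial deacetylase, read 96.8 against 532, Kdm7a, a histone demethylase, 152 against 545, and Ezh1, a methyltransferase of Polycomb, 155 against 447. Its relative Ezh2 lay on the other side at 891 against 430, beside Dnmt1, the maintenance DNA methyltransferase, at 663 against 223. Smarca1, a chromatin remodeller, read 137 against 51.8 but was not called with low intensities raised. Hdac7, a histone deacetylase, read 472 against 182.

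Machinery of RNA and protein synthesis had medians under 0. Cytosolic ribosomal protein genes had a median of -0.31 with 1 of 53 called, Rpl12 at 324 against 104. Splicing factors had a median of -0.45 with 0 of 61 called. Translation factors gave 4 higher and 4 lower of 61 (median -0.21). Eif4e3, a cap-binding protein, read 103 against 623, and Eif1a, a start-site factor, 541 against 222. Eif4a2, a helicase of initiation, read 731 against 1762. Cytosolic tRNA synthetases, which charge tRNAs with amino acids, were lower in 8 of 21 cases and higher in 0 (38.1%, median -0.93), with Iars at 2064 against 661, Rars at 1912 against 638 and Cars at 379 against 147. Centring each array on its median moved all medians by -0.08.

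Genes of the integrated stress response were lower in most cases, with 16 of 28 lower and 1 higher (57.1%, median -1.20). This program answers amino acid shortage among other stresses, and acts through the factor ATF4 to raise amino acid import and serine synthesis. Aldh1l2, a mitochondrial folate enzyme, read 553 against 34.2, Slc7a5, the large neutral amino acid transporter, 1835 against 161 with 66.3 in BA, and Mthfd2, another mitochondrial folate enzyme, 742 against 86.3. Atf4 itself read 357 against 152. Asns, asparagine synthetase, read 2514 against 1527 and was not called. The exception was Vldlr, a lipoprotein receptor, at 337 against 1344.

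Secretory pathway lists also had medians under 0. Of 34 chaperones and unfolded protein response genes of the endoplasmic reticulum, 9 were lower and 0 higher (median -0.64). Pdia5, a disulfide isomerase, read 1011 against 244, Serpinh1, the collagen chaperone, 1864 against 489.7, and Manf, a secreted stress protein, 446 against 147. Hspa5, the chaperone BiP, read 4707 against 2137. Genes of transport from the endoplasmic reticulum to the Golgi gave 9 lower and 1 higher of 38 (median -0.61). Kdelr3, a receptor that returns chaperones, read 2255 against 216, Sec24d, a coat subunit for large cargo, 871 against 260.3, and Creb3l2, a factor that drives secretion genes, 716 against 227. The exception was Sar1b, the GTPase of that coat, at 951 against 2131. Of 19 cytosolic and small heat shock genes 4 were lower, with Cryab at 1713 against 486, Hsph1 at 598 against 201 and Hsp90aa1 at 2456 against 931, and 1 was higher, Hspb6 at 305 against 745.

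Lists of protein breakdown had few called members. Their shares higher in DiBA lay near the 8.54% of all genes, and both medians were 0. Proteasome genes gave 3 higher and 0 lower of 48 (6.25% higher). These were Psmb8 at 37.3 against 162 and Psmb9 at 99.1 against 258, which belong to the immunoproteasome, and Psme1, a subunit of its activator, at 514 against 1035. Autophagy and lysosome genes gave 5 higher and 0 lower of 50 (10% higher). Gabarapl1, which marks autophagosomes, read 351 against 1632, and the proteases Ctsf and Ctsb 104 against 441 and 1712 against 4228.

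Genes on the amino acid breakdown list were higher in most cases. Of its 53 genes 29 were higher and 2 lower (54.7% and 3.77%, median 1.31). The list also holds genes of synthesis, among them Glul and Odc1, so the count is not of breakdown genes alone. Aldh6a1, which breaks down the products of valine, read 109 against 3528, 32.2-fold higher, Glul, glutamine synthetase, 188 against 4563, and Bckdha, a subunit of the branched-chain keto acid dehydrogenase, 149 against 2086. Its partner Bckdhb read 308 against 2067, and Ppm1k, the phosphatase that activates the complex, 63.9 against 389. The isoenzymes of the first step lay on opposite sides. Bcat2, the mitochondrial branched-chain aminotransferase, read 219 against 1007, while the cytosolic Bcat1 read 1016 against 71.7, 14-fold lower. The second lower gene was Odc1, the first enzyme of polyamine synthesis, at 335 against 144.

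Among 37 transporters of amino acids 11 were lower and 6 higher. Lower were Slc38a4, a carrier with an imprinted gene, at 1196 against 58.7, Slc7a3, a cationic amino acid carrier, at 375 against 35.2, and Slc38a1, a glutamine carrier, at 372 against 35.3. Higher were Slc36a2, a proton-coupled carrier, at 41.7 against 2313, Slc7a10, a small neutral amino acid carrier of fat and brain, at 64.6 against 355, and Slc1a3, a glutamate carrier, at 184 against 952. Of the lower transporters, Slc7a5, Slc7a11, Slc7a1, Slc6a9, Slc3a2 and Slc38a2 are also on the integrated stress response list.

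Nucleotide and folate genes gave 6 higher and 8 lower of 41. Ctps, which makes CTP, read 613 against 118, Mthfd1l, a mitochondrial folate enzyme, 388 against 130.1, and Dck, a kinase of deoxynucleosides, 259.7 against 93.8. Higher members include purine enzymes, with Adssl1 at 59.9 against 558, Xdh, which makes uric acid, at 59.5 against 554, and Ampd1, the AMP deaminase of muscle, at 32.1 against 253. Adssl1 and Ampd1 are muscle isoenzymes, and the skeletal muscle sum was 4189.9 and 24414.

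Genes of sugar storage and synthesis were higher in most cases. Of 28 genes of glycogen metabolism and gluconeogenesis 19 were higher and 1 lower (67.9% and 3.57%, median 1.65). Pygl, the liver form of glycogen phosphorylase, read 21.1 against 2328 with 2708 in BA, 105-fold higher, Pck1, which makes phosphoenolpyruvate and feeds glycerol synthesis in fat, 45.9 against 4129, and Fbp1, fructose bisphosphatase, 18.6 against 471. Gbe1, the branching enzyme, read 141 against 2212, and Gys2, a glycogen synthase, 20.02 against 255. Pygm, the muscle phosphorylase, read 60.7 against 895 and is also a skeletal muscle marker. The gene on the other side was Pgm2 at 548 against 248.

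Genes of NADPH supply were higher in 10 of 17 cases and lower in 2 (median 1.17). Tkt and Taldo1, of the pentose phosphate pathway, read 304 against 3072 and 233 against 1262, and Me3, a mitochondrial malic enzyme, 81.4 against 516. Lower were Nnt, which uses the mitochondrial proton gradient to make NADPH, at 769 against 238, and the malic enzyme Me2 at 342 against 161. Of 14 ketone and lactate genes 6 were higher and 0 lower, with Ldhd, which oxidises D-lactate, at 80.8 against 959, Mpc1, a subunit of the mitochondrial pyruvate carrier, at 543 against 4333, and Ldhb at 254 against 1894.

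Peroxisomes shorten very long and branched fatty acids. Of 42 of their genes 27 were higher and 1 lower (64.3% and 2.38%, median 1.45). Abcd2, which carries very long chain acyl groups in, read 33 against 1421, 41.8-fold higher, Phyh, which starts the oxidation of phytanic acid, 175 against 3556, and Ehhadh, an enzyme of peroxisomal beta-oxidation, 38 against 743. Pex11a, which acts in peroxisome division, read 59.9 against 713. The lower gene was Far1, which makes fatty alcohols for ether lipids, at 753 against 339.8.

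Of 28 genes that make the mitochondrial cofactors coenzyme Q, iron-sulfur clusters and lipoate, 15 were higher and 0 lower (53.6%, median 1.06). Coq8a, an atypical kinase of coenzyme Q synthesis, read 62.1 against 5050.4, 80.1-fold higher, Coq9 319 against 2163, and Isca1, an iron-sulfur assembly protein, 217 against 912. Aldehyde and xenobiotic enzymes gave 28 higher and 2 lower of 55 (50.9% and 3.64%, median 1.02, or 0.67 with dim values raised to the median). Ces1d, a carboxylesterase that hydrolyses stored lipid, read 25 against 4161, Ephx2, the soluble epoxide hydrolase, 27.4 against 1470.3, and Fmo1, a flavin monooxygenase, 69.1 against 3537. Lower were Aldh1a2, which makes retinoic acid, at 98.7 against 19.8, and Ephx1, the microsomal epoxide hydrolase, at 1219.6 against 568.

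Antioxidant genes gave 11 higher and 1 lower of 35. Gpx3, a secreted glutathione peroxidase, read 404 against 8315, Selenop, the selenium transport protein, 259 against 3712, and Txnip, which binds thioredoxin, 467 against 5197. Sod2, the mitochondrial superoxide dismutase, read 839.9 against 4957. Nfe2l2, which encodes NRF2, and its targets Nqo1 and Gclm were not called, at 1004 against 1231, 109 against 75.3 and 473 against 579, and Hmox1, another target, was lower at 579 against 236. Metal genes gave 6 higher and 5 lower of 39. In the Steap family of reductases, Steap4 read 24.5 against 2199, 86.4-fold higher, and Steap3 177 against 491. Steap1 read 133 against 37.5 and was not called with low intensities raised, and Steap2 read 124 against 49.3, where 1 of its 2 probe sets had a difference of 0. Trf, transferrin, read 60.7 against 1225, Cp, the ferroxidase ceruloplasmin, 80.7 against 473, and Slc39a6, a zinc importer, 705 against 117.

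Hypoxia response genes gave 7 higher and 4 lower of 28, and the factors themselves lay on opposite sides. Epas1, a relative of Hif1a, read 164 against 1660.3, and Hif1a read 1709.7 against 800.3. Ndrg2 read 178 against 4134 and Bnip3, a mitophagy receptor, 199 against 2259.6. Lower were Adm, the vasodilator adrenomedullin, at 613 against 136, and P4ha1 and P4ha2, the collagen prolyl hydroxylases, at 1284 against 370 and 182 against 69.7.

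Lipid pathways other than fatty acid use were divided. Of 28 cholesterol genes 12 were lower and 4 higher (42.9% and 14.3%, median -0.82). Lower were enzymes of synthesis, with Sqle, squalene epoxidase, at 1338 against 142, Msmo1 at 1475 against 247 and Cyp51 at 872 against 150.2, together with their regulator Srebf2 at 970 against 298, and Ch25h, which makes an oxysterol, at 393 against 40.7. Higher were genes of cholesterol handling and export, Cyp27a1, a sterol hydroxylase, at 58.1 against 854, Apoe at 499.8 against 3614 and the exporter Abca1 at 186 against 776. Phospholipid and sphingolipid genes gave 8 higher and 10 lower of 50. Plaat3, a phospholipase of fat cells, read 44.9 against 1019, Chpt1, which makes phosphatidylcholine, 253 against 5490.1, and Crls1, which makes the mitochondrial lipid cardiolipin, 159 against 715. On the other side Cers6, a ceramide synthase, read 1709 against 266, Ugcg, which adds glucose to ceramide, 1494 against 384, and Sptlc2, of the first step of sphingolipid synthesis, 1435 against 476. ABC transporters gave 11 higher and 1 lower of 48, with Abca8a at 20.5 against 518, Abca2 at 99.8 against 494 and the lower Abcg2, a drug exporter, at 297 against 109.

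Genes of contact and shape were more often lower than higher. Among 35 tubulins, intermediate filaments and their binders, 18 were lower and 3 higher (51.4% and 8.57%, median -1.06, or -0.88 with dim values raised). Tubb2b, a beta tubulin, read 980.4 against 62.3, 15.5-fold lower, Tubb6 1457 against 185, and Dpysl3, which binds tubulin, 1293 against 198. Nes, the intermediate filament nestin, read 350.4 against 59.4. Higher were Tuba8 at 72.6 against 663, Tuba4a at 164 against 465 and Mapt, the tau protein, at 43.6 against 122.

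Of 50 cadherin and junction genes 12 were lower and 3 higher. Cdh3, placental cadherin, read 399 against 36.8, Cdh11, the cadherin of mesenchymal cells, 4258 against 543 with 106 in BA, and the protocadherin Pcdh18 1497 against 225. F11r, a junction adhesion molecule, was higher at 146 against 559. Of 48 axon guidance genes 15 were lower and 3 higher (median -0.48). Sema3a and Sema3e, secreted semaphorins, read 449 against 40.7 and 254 against 45.2, and Unc5b, a netrin receptor, 604 against 119. Slit2, a secreted repellent, read 2511 against 539, with 39.5 in BA. The higher ones were Sema4a at 37.2 against 162, Efna1 at 62.6 against 133 and Robo4, known from endothelium, at 47.7 against 97.3. Of 31 caveolar, annexin and S100 genes 7 were lower and 3 higher. Anxa3 and S100a4, calcium-binding proteins, read 2378 against 196 and 850 against 113, and S100a6 2076 against 387. Cav2, a caveolin, was higher at 272 against 1520.1.

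Of 18 class I and processing genes 9 were higher and 0 lower (50%, median 0.97). Cd1d1, which presents lipids, read 24.3 against 656, Psmb8 37.3 against 162, and the class I gene H2-Q4 35.8 against 146. Tapbp, which loads peptide, read 231 against 707. B2m, the shared light chain, read 3515 against 4985 and was not called. Innate sensing and NF-kappaB genes gave 4 higher and 2 lower of 36. Lbp, which binds bacterial lipopolysaccharide, read 81.5 against 565 with 169 in BA, Tlr3, a sensor of double-stranded RNA, 29.8 against 91.3, and Cd14 92.4 against 209. Lower were Tnfaip6, a hyaluronan-binding protein, at 241 against 57.4, and Vcam1, an adhesion molecule, at 548 against 262. The macrophage sum was 2446 and 8824 on the same arrays.

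Leaving out the genes on fixed lists of adipocyte, matrix, contractile and cell cycle genes (Ces1d is on the first) and on the marker lists, unnamed gene models and receptor and small RNA families, the 20 genes highest in DiBA had folds of 41.8 to 236. The folds were 14.4 to 125 for the same genes when fibroblast values under the median were raised to it. Tmem45b read 16.5 against 4118, Car3, a carbonic anhydrase of fat and muscle, 97.7 against 12367, and Acsm3, a medium-chain acyl-CoA synthetase, 23.3 against 2579. Apoc1, an apolipoprotein, read 42.1 against 3147, Agmo, which cleaves ether lipids, 16.6 against 1222, and Hp, the haemoglobin-binding protein haptoglobin, 35.3 against 2283. Adhfe1, which oxidises gamma-hydroxybutyrate, read 51.4 against 3273, Fam13a 33.8 against 2892, and Amy1, an amylase, 23.5 against 1201. Ifi27l2a, an interferon-induced gene, read 54.7 against 2661, and H2-Ea, a class II chain like those on the macrophage list, 22.1 against 1278. Lcn2, an iron-binding secreted protein, read 31.9 against 3472 but 58.7 in BA, the only one of the 20 with BA under the median intensity.

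The 20 lowest had folds of 11.1 to 25.8 in favour of fibroblasts. Cd109, a surface protein that binds TGF-beta, read 1839 against 70.5, Crabp1, which binds retinoic acid in the cytosol, 7046 against 349.9 with 108 in BA, and Ptprz1, a receptor tyrosine phosphatase, 287 against 13.5. C1qtnf3, a secreted C1q family protein, read 765 against 42.4, Tenm3, a teneurin of cell contact, 1335 against 95.3, and Peg3, an imprinted zinc finger gene, 1726 against 124. Rtl3, a gene derived from a retrotransposon, read 704 against 45, Gpr176, an orphan receptor, 559 against 43.4, Lrrc17 1971 against 175, and Nuak1, a kinase of the AMPK family, 2328 against 208. None of the 20 was brighter in BA than in fibroblasts. The 20 were chosen for their excess on that same fibroblast array, so this gives no measure of how alike DiBA and BA are.

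**Figure D4:**
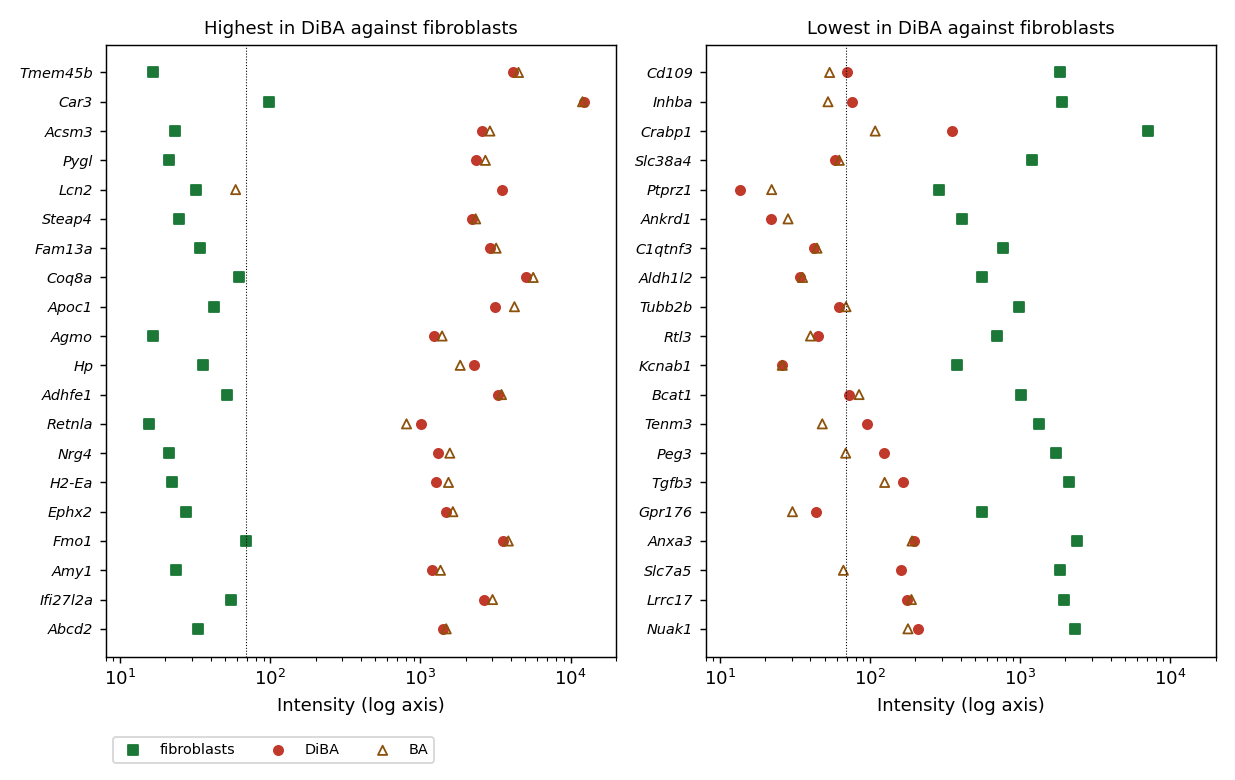
Intensity (log axis) in fibroblasts (green squares), DiBA (red circles) and BA (open brown triangles) of the 20 highest and 20 lowest genes outside the lists left out above, with a dotted line at 69.2. Lcn2 is the gene whose BA value lies near its fibroblast value of 31.9 while DiBA reads 3472.

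The start regions of 1 gene from each end are shown because they hold the letters of a TATA box, TATAAA, which is in capitals. Both are 250 bases before the RefSeq start, build GRCm38.p6, plus strand. Retnla, which encodes a resistin-like secreted protein and read 15.6 against 1008, lies at chr16:48842359-48842608 with the motif at -30. Inhba lies at chr13:16011601-16011850 with the motif at -91.
Retnla: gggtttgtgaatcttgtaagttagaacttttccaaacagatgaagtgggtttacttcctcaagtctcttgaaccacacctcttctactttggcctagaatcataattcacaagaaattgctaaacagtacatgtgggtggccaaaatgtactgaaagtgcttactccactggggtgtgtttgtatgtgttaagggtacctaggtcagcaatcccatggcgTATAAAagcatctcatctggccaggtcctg
Inhba: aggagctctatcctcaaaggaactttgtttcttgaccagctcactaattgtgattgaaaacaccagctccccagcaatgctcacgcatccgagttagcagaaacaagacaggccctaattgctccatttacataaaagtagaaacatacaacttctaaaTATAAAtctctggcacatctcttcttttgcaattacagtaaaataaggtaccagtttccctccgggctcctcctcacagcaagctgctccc
Counted on either strand in windows from 250 before to 50 after the start, TATAAA was in 13.7% of 278 promoters of genes at least 8-fold higher and 18.7% of 75 of genes at least 8-fold lower. The share was 6.86% of 8664 promoters of genes that entered but were under 2-fold, and 13.6% of all promoters. CpG dinucleotides ran the other way, with a median of 10 per promoter in both 8-fold groups, 21 in the genes under 2-fold and 7 over all promoters. The ETS core CCGGAAG was in 6.47% and 2.67% of the 8-fold higher and lower promoters (18 of 278 and 2 of 75). It was in 19% of those under 2-fold and 8.86% of all promoters. The ETS core is 1 of several motifs counted in these windows, and most of the others are not given here. A promoter was found for 9272 of the 11621 genes.

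By chromosome, the share of entering genes that were higher ran from 12% to 18.2% over the 19 autosomes, and the share lower from 10% to 16.7%. The X chromosome lay outside both ranges, with 10.6% of its 359 genes higher and 21.4% lower. The lower X genes include Rtl3 at 704 against 45, Slc7a3 at 375 against 35.2 and Clcn5 at 953 against 137.

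**Figure D5:**
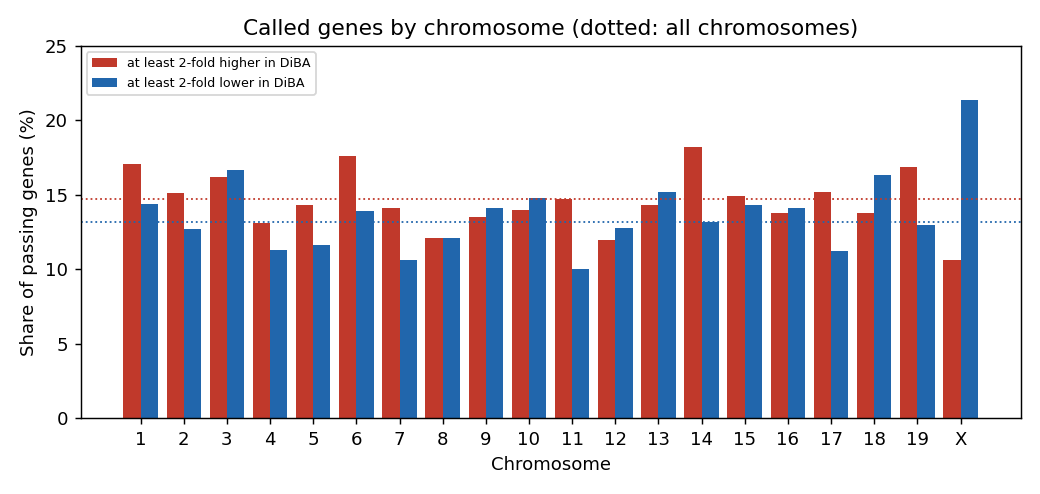
Share of the genes of each chromosome that were at least 2-fold higher (red) or lower (blue) in DiBA, among genes that entered the comparison, with dotted lines at the shares over all chromosomes of 14.7% and 13.2%. The X chromosome, at 10.6% and 21.4%, has the lowest red and the highest blue bar.

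Some genes were higher in DiBA with BA near or under the fibroblast value, and the ones named here were chosen after their values were seen. Atp6v0d2, a subunit of the proton pump of osteoclasts and macrophages, read 28 against 208 with 36.8 in BA. Mmp12, the macrophage elastase, read 49.3 against 168 with 46, Slfn4, a Schlafen gene of myeloid cells, 33.7 against 161 with 43.7, Fgl1, a secreted fibrinogen-like protein, 23.9 against 159.5 with 29.2, and Pi15, a secreted peptidase inhibitor, 48.6 against 196 with 29.4. The comparison of BA with fibroblasts shares the fibroblast array, so these values are set side by side only.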

How the data were processed

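Total RNA of the 3 samples was labelled with biotin and hybridised to single-colour Affymetrix arrays, 1 per sample, per the labels' protocols. The deposited values are linear intensities, 1 for every probe set on each array. The submitters' processing notes name Affymetrix Expression Console. Its version, and how background, summarization and normalization were handled, is not given in the sources used here. Fibroblasts had a median intensity of 67.8, DiBA of 71.5 and BA of 67.7, and the intensities were used without further scaling.

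Groups came from the labels. Of 28943 probe sets, the platform's gene table listed 23410, of which 21789 name 1 gene symbol and 1621 several, and 5533 are not listed. The gene ID of 23312 was found in the RefSeq table of assembly GRCm38.p6, and 0 symbols changed. Probe sets of a gene were averaged on the log2(intensity + 1) scale, which affected 999 genes. The added 1 makes the fold of a dim gene smaller than the ratio of its intensities, and the error of such a fold is not known. Genes were filtered at the median intensity of 69.2 and called at 2-fold. No detection calls were used.

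The comparison, the 53 gene lists and the 14 marker lists were chosen with earlier results of these data known. Named genes are the 20 highest and 20 lowest outside the already described themes, marker lists, predicted genes, Riken clones, chemosensory receptors, small RNAs and antigen receptor genes, up to 3 members of each list and direction, up to 3 of each marker list, and Ucp1, Adipoq, Col1a1 and Mki67. 1 of the gene lists is not reported here. Other members named beside them were chosen after their values were seen. Promoters, 250 bases before to 50 after a start, came from RefSeq. The steps were tested on simulated data, with changes put only into genes well above the median intensity. That test does not cover dim genes or changes near 2-fold. Alternatives were centring, quantile normalization, a pseudocount of 32, low intensities raised to the median, no filter, a filter at the 75th percentile, the highest probe set of a gene, and probe sets kept apart. Python 3.11.15, numpy 2.4.6, pandas 2.3.3 and matplotlib 3.10.9 were used. The number of arrays limits the precision.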

Additional observations from a re-analysis of the deposited data

Results flagged for a closer look

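Probe sets that name no single gene took no part in the comparison. Of 5533 probe sets not listed in the platform's gene table, 1800 reached the median intensity, and 271 of these (15.1%) were at least 2-fold higher in DiBA and 130 (7.22%) at least 2-fold lower, beside 14.7% and 13.2% of the genes. Of 1621 probe sets with several gene symbols, 852 reached it, and 128 (15%) were at least 2-fold higher and 62 (7.28%) lower. They were set apart because their signal lies outside the measurement by gene, and they were not named here.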

How the results depend on the processing

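No paired analysis was possible because each group holds 1 array. Over the alternatives, 1265 to 1818 features were higher and 1115 to 1711 lower, each within 1.5 times the reported 1703 and 1530. The higher calls were 52.7% of all calls as reported, 48.4% with each array centred on its median, which moved the median of all genes by -0.08, and 54.3% with a pseudocount of 32. Of 303 named genes, each counted once however many lists name it, none of those called turned direction. Genes no longer called were 50 under the 75th percentile filter, 18 with low intensities raised to the median and 16 with a pseudocount of 32. Centring lost 6, quantile normalization 5 and the other alternatives run on genes 0. List medians crossed 2-fold for tRNA synthetases with centring (-1.01), for coenzyme Q, iron-sulfur and lipoate synthesis with centring (0.98) and a pseudocount of 32 (0.92), for aldehyde and xenobiotic metabolism with centring (0.94), quantile normalization (0.98), a pseudocount of 32 (0.98) and raised low intensities (0.67), and for tubulins with a pseudocount of 32 (-0.86) and raised low intensities (-0.88). The cause was not tested. The 75th percentile filter, which leaves fewer genes, lowered the count of lower genes from 32 to 18 for developmental factors, 18 to 12 for tubulins, 13 to 7 for growth factors, 11 to 7 for ion channels, 8 to 5 for cAMP genes, 7 to 3 for Hedgehog, 5 to 3 for cytokine receptors and 8 to 0 for Hox genes, and the count of higher genes from 9 to 5 for both class I genes and G protein-coupled receptors, 11 to 7 for ABC transporters, 10 to 6 for receptor tyrosine kinases, 8 to 5 for cytokines and 2 to 0 for Notch, among other lists. A pseudocount of 32 gave 4 lower Hox genes, 5 lower nucleotide genes, 3 lower metal genes, 3 higher autophagy genes and 1 higher innate sensing gene in place of 4, among others. Dim genes limit what can be read, since no detection calls or scanner files were used here.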

Other observations

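Genes of the sex chromosomes, chosen after their values were seen, differed between the arrays, and the labels give no sex for any sample. Xist, the RNA of the inactive X chromosome, read 1748 in fibroblasts, 1155 in DiBA and 22 in BA. The Y-linked genes lay the other way. Uty read 112, 319 and 373 in the same order, Eif2s3y 187, 603 and 678, and Kdm5d 94.3, 179 and 190. On the DiBA and the fibroblast array all 4 genes lay above the median intensity of 69.2. The number of animals or embryos behind each culture is not given in the labels. The part of this difference in the larger share of lower genes on the X chromosome was not tested.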
